A study of Mus musculus with 8 samples.

Results

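The genes of the transferrin cycle and of cellular iron uptake form the set described here. It has 10 members chosen by name, namely *Trf*, *Tfrc*, *Slc11a2*, *Steap1*, *Steap2*, *Steap3*, *Aco1*, *Ireb2*, *Fbxl5* and *Slc25a37*, and the rule for membership uses no measured value, although earlier results of these data were known when it was drawn up. Of the 10 genes, 9 had a named probe, with 13 probes among the 25697 on the array. A probe counted as detected in an array when its detection p-value, from the negative control beads of that array, was under 0.01, and it was tested when it was detected in every array of at least 1 group. In all 11204 probes, for 8051 genes, were tested, and among them were 7 probes for 6 member genes. No probe carried the name *Slc25a37* in the annotation used, so this gene was not analysed here.

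RNA from the brain of 4 Hfe-/-xTfr2mut mice and 4 wild-type mice was hybridized to the 8 arrays of 1 BeadChip (Illumina MouseRef-8 v2). All were male AKR mice aged 13 weeks, perfused with saline before the brain was taken. The Hfe-/-xTfr2mut mice carried both mutations in homozygous form in the whole animal and ate a diet with 2% carbonyl iron for the last 3 weeks, whereas the wild-type mice stayed on standard chow with about 0.02% iron, so that genotype and diet cannot be told apart. Values are cubic-spline normalized signals in arbitrary units, and changes are differences in log2 signal, mutant minus wild type, with unadjusted p-values and Benjamini-Hochberg adjusted p-values over all 11204 probes from limma.

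Most cells take up iron bound to transferrin. Transferrin, the plasma and interstitial iron carrier, binds transferrin receptor 1 at the cell surface, the complex is internalized into an acidified endosome, a STEAP metalloreductase reduces the released ferric iron, and the divalent metal transporter moves it to the cytosol, from which mitoferrin carries it into mitochondria. Iron regulatory proteins, encoded by *Aco1* and *Ireb2*, bind iron-responsive elements (IREs) in mRNAs when cellular iron is low. On *Tfrc* mRNA they protect the transcript from decay, and on ferritin mRNA they block translation. FBXL5 is the iron-sensing subunit of the ubiquitin ligase that removes iron regulatory proteins in iron-replete cells. In brain, oligodendrocytes and choroid plexus epithelium are the main sources of transferrin mRNA, and capillary endothelium and neurons are rich in transferrin receptor.

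Promoter entries of RefSeq (GRCm38.p6) were matched by symbol for 6 of the 10 members, with 12 entries in all. The 250 bases before each start were searched on both strands for 4 motifs, namely ACGTG, the core bound by hypoxia-inducible factors, TGACGT, the core of the cAMP response element (the letters ACGT are common to both), GGGCGG, the Sp1 core, and CCAAT. The bases before the most upstream *Tfrc* start, at chr16:32608646-32608895 on the plus strand, are shown because *Tfrc* carried the change seen with more than 1 probe, with CCAAT in capitals. The 30-base sites around ACGTG are shown with the core in capitals. This core occurred in 2 of the 12 entries, near the 16.6% found over all promoter entries. *Trf*, *Slc11a2*, *Fbxl5* and *Slc25a37* had no entry, so the matches cannot be set against the changes in signal. These sites lie at chr16:32608882-32608911 (plus strand, 228 bases before a second *Tfrc* start) and at chr5:5694240-5694269 (minus strand, 168 bases before a *Steap2* start, core in reverse complement). The *Tfrc* site overlaps the end of the upstream region shown, and its core lies across the most upstream *Tfrc* start, at 32608896.
Tfrc upstream region: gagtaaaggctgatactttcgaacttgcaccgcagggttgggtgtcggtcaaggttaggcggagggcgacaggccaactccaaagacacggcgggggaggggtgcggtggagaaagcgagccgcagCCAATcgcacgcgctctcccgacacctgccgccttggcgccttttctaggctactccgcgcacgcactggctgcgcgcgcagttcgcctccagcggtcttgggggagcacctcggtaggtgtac
Tfrc site: ctcggtaggtgtACGTGcggaaggaagtga
Steap2 site: gcgggcgggatcCACGTagggctgctccca

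Of all 32851 promoter entries, 16.6% held ACGTG in the same window, 6.47% held TGACGT, 32.7% held GGGCGG and 33.8% held CCAAT. The window before the second *Tfrc* start also held 1 TGACGT and 1 GGGCGG. These matches describe letters only, and no binding was measured.

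The mutated loci were read first. The *Hfe* probe ILMN_2870696 gave 336.7, 323.7, 314.4 and 355.7 in the arrays labelled Hfe-/-xTfr2mut and 134.5, 128.6, 123.1 and 139.9 in the wild-type arrays. It was thus brighter in every array labelled as lacking *Hfe*, a change of 1.34 (SE 0.09) on the log2 scale with an adjusted p of 2.29e-05 in limma. The labels cannot be checked with it, because the position of the probe in the gene, inside or outside the deleted stretch, was not known here. No signal was detected in any array with the remaining *Hfe* probe or with either *Tfr2* probe, and groups are named by their labels throughout.

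Transferrin, its receptor and 1 metalloreductase were lower in the mutant-labelled arrays, by 1.26-fold to 1.33-fold. Of the 7 member probes tested, 4 were lower at an unadjusted p under 0.05 and 0 were higher, covering *Trf*, *Tfrc* and *Steap2*, 3 of 6 tested genes. Among all probes tested, 12.7% passed this threshold in either direction and 6.02% were lower. The same 4 probes had every mutant-labelled array below every wild-type array, which held for 3.53% of all probes tested. No member reached an adjusted p under 0.05, a threshold passed by 19 probes (0.17%), although *Trf* and both *Tfrc* probes did so when arrays were weighted by their estimated quality (lowest adjusted p 0.0407, limma). The median change of the 7 member probes was −0.33, the *Steap2* value, against −0.002 over all probes tested. In this median *Tfrc* counts with 2 probes, and *Aco1* and *Ireb2* are included although each passed the filter through 1 group only. Of all calls at unadjusted p, 47.2% were lower, against 80.7% after average normalization.

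**Figure D1:**
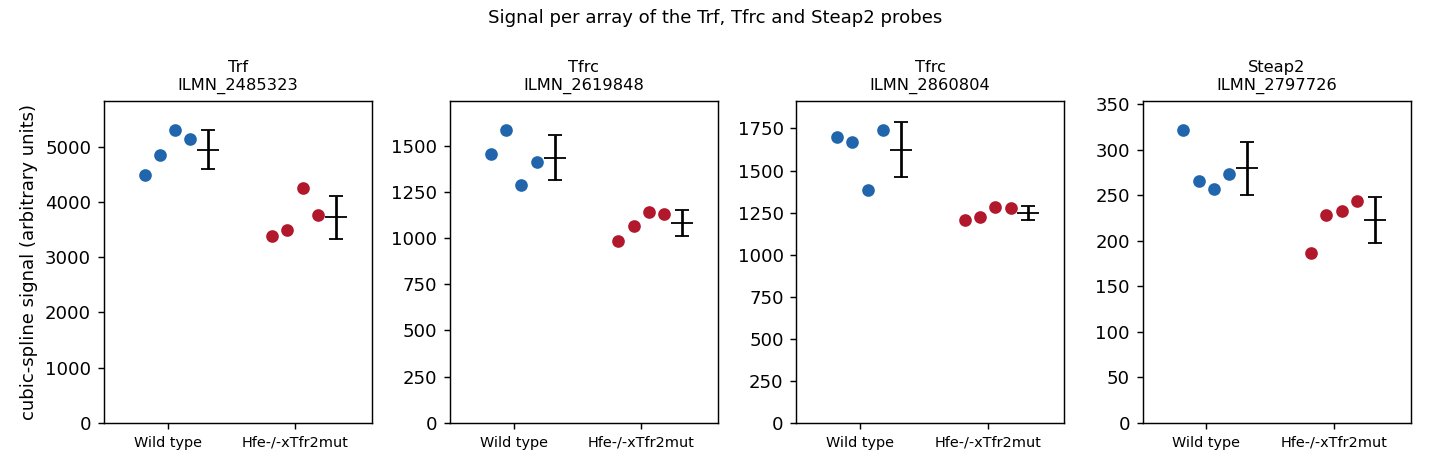
Cubic-spline signal (arbitrary units, axis from 0) of the *Trf*, *Tfrc* and *Steap2* probes in each array, wild type in blue and arrays labelled Hfe-/-xTfr2mut in red, with the group mean ± SD (n = 4) in black. In all 4 panels the highest red point lies below the lowest blue point, most narrowly for *Steap2* (243.6 against 257.6).

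*Trf* (ILMN_2485323, gene at chr9:103208876-103230286 in GRCm38.p6) encodes transferrin, the ligand of the cycle. Its signal was 3379, 3496, 4248 and 3770 in mutant-labelled replicates 1 to 4, and 4491, 4857, 5308 and 5149 in wild-type replicates 1 to 4. The highest mutant-labelled value, in replicate 3, lay just under the lowest wild-type value, in replicate 1. The group means were 3723 ± 386 and 4951 ± 359 (SD, n = 4 each), a 1.33-fold lower level. The log2 change was −0.41 (SE 0.10, 95% interval −0.64 to −0.18), with an unadjusted p of 0.00221 and an adjusted p of 0.197 (limma). A two-sided exact permutation test gave p = 0.0286, the smallest value that 4 against 4 arrays allow. In whole-brain RNA, fewer cells of a type and less RNA per cell cannot be told apart.

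Markers of the cells known to make transferrin mRNA were read beside this result. Of 14 oligodendrocyte and myelin genes, 10 were detected, and of these 3 were lower at unadjusted p and 0 higher. Among the 10 changes 9 were negative, and the median was −0.17. Over all probes tested, 6.02% were lower at this threshold and 12.7% passed in either direction. The 3 lower genes were *Fa2h*, a fatty acid hydroxylase of myelin lipids (−0.47), *Ugt8a*, which makes galactocerebroside (−0.23), and *Cnp*, a myelin enzyme (−0.23). The groups overlapped for *Fa2h* (two-sided exact permutation p = 0.0571) and were apart for *Ugt8a* and *Cnp* (0.0286 each). The summed signal of the list was 74970 to 78700 in mutant-labelled arrays and 78510 to 86570 in wild-type arrays. *Mbp* alone gave 37550 to 40270 and 34660 to 43590 of this sum. *Mbp*, the myelin basic protein gene, changed by −0.05 (SE 0.10), and *Ermn* and *Aspa* were not detected. Of 10 choroid plexus genes, 8 were detected, with 1 lower (*Kl*, −0.34), 1 higher (*Calml4*, 0.40) and a median of −0.02. The groups overlapped for *Kl* and were apart for *Calml4*. The summed choroid plexus signals were 29350 to 38540 and 31600 to 39380, in the same order, with *Kcnj13* and *Enpp2* not named by any probe. *Ttr* alone gave 27200 to 35680 and 29270 to 36480, so this sum mostly reads 1 gene. The part of either cell type in the *Trf* result was not tested.

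*Tfrc* (gene at chr16:32608896-32632794) encodes transferrin receptor 1 and was read by 2 probes. ILMN_2860804, the brighter, gave 1204, 1222, 1282 and 1280 in the mutant-labelled arrays and 1700, 1669, 1384 and 1742 in the wild-type arrays. The mutant-labelled arrays lay close together, and wild-type replicate 3 was the nearest to them. The means were 1247 ± 40.1 and 1624 ± 163 (SD, n = 4 each). This was a log2 change of −0.38 (SE 0.10, 95% interval −0.59 to −0.16, unadjusted p = 0.00303, adjusted p = 0.215, limma).

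ILMN_2619848 gave 984.9, 1065, 1140 and 1131 against 1454, 1585, 1287 and 1411. Again the groups did not overlap, and wild-type replicate 3 was the lowest of its group. The change was −0.41 (SE 0.10, 95% interval −0.62 to −0.19, unadjusted p = 0.00173, adjusted p = 0.197, limma), and the two-sided exact permutation test gave p = 0.0286 for each probe. With both probes averaged the gene changed by −0.39 (adjusted p = 0.17, limma). After subtraction of the group means the probes correlated at r = 0.71 over the 8 arrays, a description of shared array-to-array deviation, since both read the same RNA.

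Markers of cells rich in transferrin receptor were examined likewise. Of 10 brain endothelial genes, 6 were detected. *Slco1a4*, an organic anion transporter of brain capillaries, was detected in 1 of 4 mutant-labelled arrays and 4 of 4 wild-type arrays. Its signals were 40.96 to 108.9 and 85.67 to 126.2, so it was tested only through the group where it was high. It is not counted as a call and its change is not given. Among the rest, *Flt1*, a VEGF receptor, was lower at unadjusted p (−0.41), with overlapping groups. Over all probes tested, 6.02% were lower at this threshold and 12.7% passed in either direction. *Slco1c1* (−0.21), *Ly6c1* (−0.16), *Esam* (−0.055) and *Slc2a1* (−0.05) did not pass. The summed endothelial signal, *Slco1a4* included, lay between 5176 and 6465 with the mutant label and between 5986 and 7155 in wild type. *Pecam1*, *Abcb1a* and *Cdh5* were not detected, and no probe was named *Cldn5*. Of 10 neuronal genes, 7 were detected and 1 was lower (*Syt1*, a synaptic vesicle calcium sensor, −0.34), with overlapping groups. This count is near the 12.7% above. Summed neuronal signals were 63440 to 68800 and 65800 to 75270. *Snap25*, *Gad2* and *Nefl* were not detected. Maturing red cells also carry the receptor, and of 10 red blood cell genes only the globin genes *Hba-a1* and *Hbb-b2* were detected. *Hba-a1* was higher at unadjusted p (1.06), with overlapping groups. *Hbb-b2* was detected in 4 of 4 mutant-labelled and 3 of 4 wild-type arrays (signals of 132.9 to 367.8 and 51.22 to 168.3), so it was tested only through the group where it was high. For this reason *Hbb-b2* does not count as a gene called higher, and no change is printed for it. The summed globin signals, *Hbb-b2* included, were 1706 to 4916 and 1210 to 2203, most of it from *Hba-a1* (1573 to 4548 and 1159 to 2035). *Alas2*, *Slc4a1*, *Bpgm* and *Hbb-bt* were not detected. The part of these cells in the *Tfrc* result was not tested.

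The STEAP metalloreductases reduce ferric iron, STEAP3 being the endosomal reductase of red cell precursors. *Steap2* (ILMN_2797726, gene at chr5:5664829-5694649) was the 1 member of this family with detected signal. It gave 186.8, 228.1, 233.2 and 243.6 in the mutant-labelled arrays and 322.1, 265.7, 257.6 and 273.9 in the wild-type arrays. Mutant-labelled replicate 1 was the lowest value and wild-type replicate 1 the highest, while the remaining arrays spanned 228.1 to 273.9 with the groups still apart. The means were 222.9 ± 24.9 and 279.8 ± 29.0 (SD, n = 4 each), a change of −0.33 (SE 0.12, 95% interval −0.58 to −0.08). The unadjusted p was 0.0153 and the adjusted p 0.313 (limma), with 0.0286 in the two-sided exact permutation test. Without mutant-labelled replicate 1 the change was −0.25 and the unadjusted p 0.0531 (limma), so the call was lost. Without wild-type replicate 1 the change was −0.26 and the unadjusted p 0.0421 (limma). The call thus lies close to the threshold when either array is left out.

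*Steap1* (ILMN_1221952) and *Steap3* (ILMN_1244848) were detected in 0 of 8 arrays. The *Steap1* signals ranged over 11.81 to 31.29 (mutant-labelled) and 23.2 to 47.17 (wild type), under the lowest signal of any detected probe (57 to 69.4 and 49.6 to 61 across the arrays of each group). The *Steap3* signals ran from −4.455 to 6.618 over all arrays. Both probes of *Steap4*, a further metalloreductase, were also detected in 0 of 8 arrays, so that no change in these reductases was measurable at this signal.

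*Slc11a2* encodes the divalent metal transporter DMT1, which moves reduced iron out of the endosome. Its probe ILMN_2665063 gave 44.06, 60.82, 29.83 and 50.84 in mutant-labelled arrays, all below detection, and 51.58, 69.7, 50.45 and 59.01 in wild-type arrays, of which replicates 2 and 4 were detected. The groups overlapped, 6 of the 8 signals were not detected, the probe failed the detection rule, and no fold change is given. *Slc11a1*, the phagosomal homolog of macrophages, was higher with ILMN_2675811 (1404 ± 187 against 1135 ± 175, SD, n = 4 each). That change was 0.31 (SE 0.13, unadjusted p = 0.037, adjusted p = 0.366, limma), but the groups overlapped, its exact permutation p was 0.114, and the other detected probe, ILMN_2983516, changed by −0.07 (SE 0.13). Of 9 microglial genes 6 were detected, of which *Aif1* was higher (0.27, groups apart) and 0 lower. Over all probes tested, 12.7% passed in either direction. All 6 microglial changes were positive and the median was 0.18. Their summed signals were 2769 to 2881 and 2277 to 2732, and *Itgam* and *Csf1r* were not read. The part of microglia in the *Slc11a1* value was not tested.

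Mitoferrin carries iron across the inner mitochondrial membrane. *Slc25a28*, which encodes mitoferrin 2, the form used outside red cell precursors, is a neighbour of *Slc25a37* in function. Its probe ILMN_2722623 gave 1957, 2413, 1620 and 2115 in the mutant-labelled arrays and 1241, 1695, 1866 and 1831 in the wild-type arrays. The groups overlapped, and the change of 0.29 (SE 0.16, 95% interval −0.05 to 0.64) did not pass unadjusted p (0.0897, limma).

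The regulators of the cycle did not pass the test in either direction, and their intervals were wide. *Aco1* (ILMN_1216382), which encodes the cytosolic aconitase that doubles as iron regulatory protein 1, gave 92.02, 101.8, 115.8 and 88.99 in mutant-labelled arrays and 127.7, 116.4, 49.39 and 83.15 in wild-type arrays. Wild-type replicate 3 was not detected, so that the probe was tested only through the mutant-labelled group, and that array set the spread of its group (94.14 ± 35.3 against 99.64 ± 12.1, SD, n = 4 each). The change was 0.17 (SE 0.25, 95% interval −0.39 to 0.72) and −0.11 without that array.

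*Ireb2* (ILMN_3161612, gene at chr9:54862658-54912534) encodes iron regulatory protein 2. Its signals of 78.45, 61.87, 59.66 and 76.07 in mutant-labelled arrays and 88.15, 53.59, 76.08 and 82.38 in wild-type arrays overlapped. The probe was detected in 2 of 4 mutant-labelled arrays and in 4 of 4 wild-type arrays, so it was tested only through the wild-type group. Its change was −0.11 (SE 0.16, 95% interval −0.46 to 0.25).

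*Fbxl5* (ILMN_1238032, gene at chr5:43744618-43782149) gave 332.4, 399.7, 284.6 and 280 in mutant-labelled arrays and 329.2, 363.7, 315.8 and 328.9 in wild-type arrays. The mutant-labelled values lay on both sides of the wild-type range, with a change of −0.06 (SE 0.12, 95% interval −0.33 to 0.21). The other 3 *Fbxl5* probes were detected in 0 of 8 arrays. The unadjusted p-values of *Aco1*, *Ireb2* and *Fbxl5* were 0.526, 0.523 and 0.646 (limma).

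**Figure D2:**
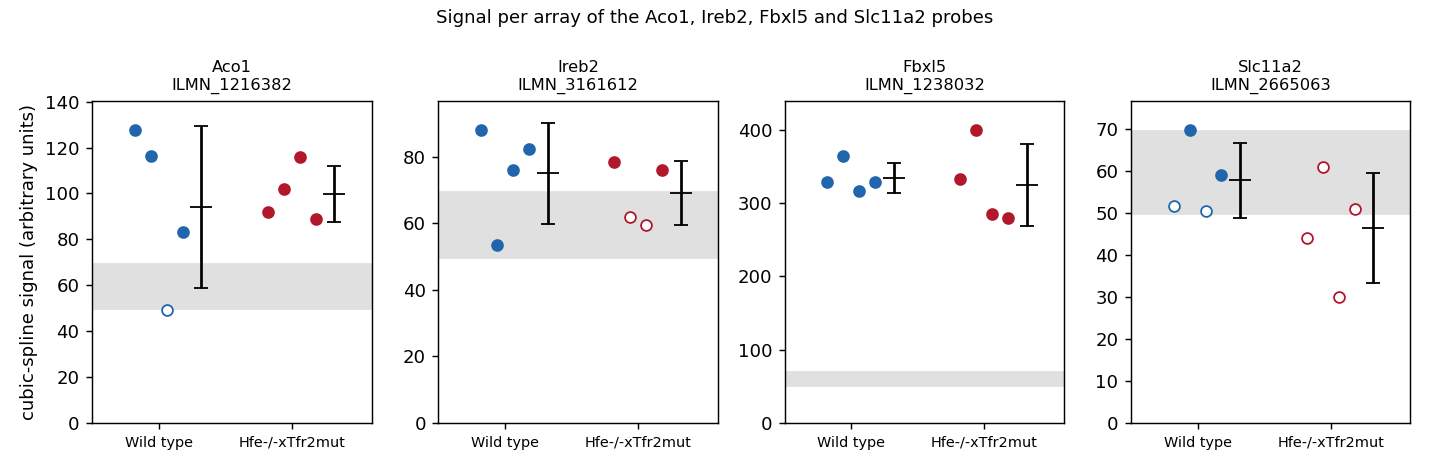
Cubic-spline signal (arbitrary units, axis from 0) of the *Aco1*, *Ireb2*, *Fbxl5* and *Slc11a2* probes in each array, wild type in blue and arrays labelled Hfe-/-xTfr2mut in red, with the mean ± SD (n = 4) in black. Open points were not detected, and the grey band spans the lowest signal of a detected probe over the 8 arrays (49.6 to 69.4). *Fbxl5* alone lies well above the band in every array.

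**Figure D3:**
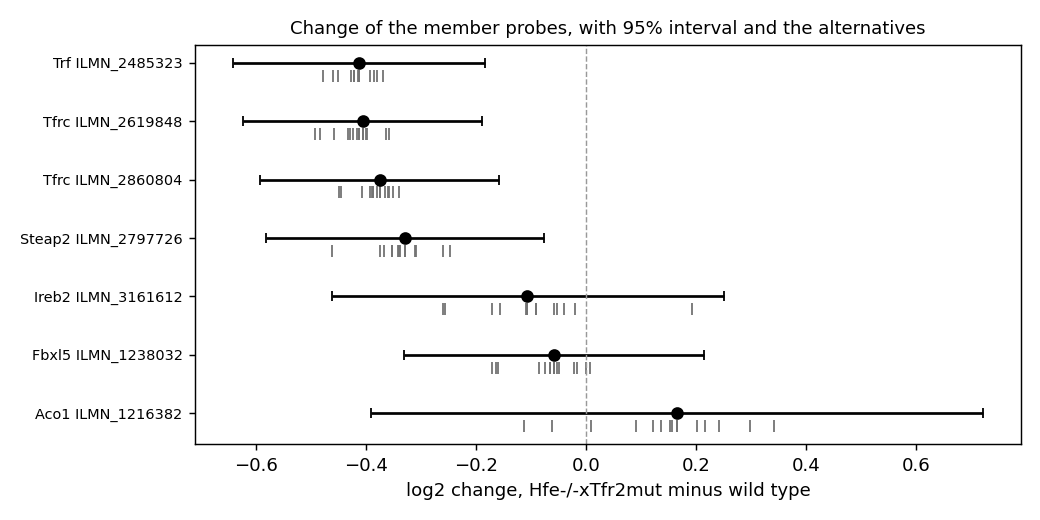
Log2 change (mutant-labelled minus wild type) of the 7 member probes tested, with the 95% interval from limma as a bar and the value under each alternative processing as a grey tick below it. The intervals of *Trf*, both *Tfrc* probes and *Steap2* lie below 0, and those of *Ireb2*, *Fbxl5* and *Aco1* include it.

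Among the members, array-to-array deviations from the group mean were shared unevenly, as a description over the 8 arrays. *Tfrc* and *Steap2* deviated in the same direction (r = 0.562 and 0.51 for the *Tfrc* probes), as did *Tfrc* and *Aco1* (r = 0.729 and 0.793). Wild-type replicate 3 was the lowest of its group for *Aco1* (49.39, not detected) and for both *Tfrc* probes (1287 and 1384). The *Aco1* correlations thus lean on 1 array with a signal below detection, and they were not computed without it. Other pairs deviated in opposite directions, namely *Trf* and *Fbxl5* (r = −0.596) and 1 *Tfrc* probe, ILMN_2619848, with *Ireb2* (r = −0.565, against −0.018 for the other *Tfrc* probe). *Trf* and its receptor had r = 0.147 and −0.113. These arrays share 1 BeadChip and 1 normalization.

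Other genes of iron uptake and handling gave a count near the 12.7% of all probes tested that passed in either direction. Apart from the mutated *Hfe*, only *Slc11a1* passed, with overlapping groups and a second detected probe that did not repeat the change. Of 36 such genes 22 were detected, with 2 higher at unadjusted p (*Hfe* and *Slc11a1*, above), 0 lower, 13 negative and 9 positive changes and a median of −0.10. *Ndfip1*, an adaptor that brings DMT1 to NEDD4-family ubiquitin ligases, changed by −0.17 (SE 0.09, unadjusted p = 0.0684, limma), with the groups apart. The partners of FBXL5 in its ubiquitin ligase changed by 0.10 for *Skp1* (SE 0.09), 0.01 for *Cul1* (SE 0.09) and 0.21 for *Rbx1* (SE 0.10, unadjusted p = 0.0579, limma). *Tfr2*, *Slc39a14* and *Slc39a8*, the last 2 being carriers of iron not bound to transferrin, were not detected in any array.

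Of 10 other mRNAs with a known or proposed IRE, 4 were detected and 0 passed unadjusted p in either direction, with a median of −0.16. *Fth1*, ferritin heavy chain, whose IRE acts on translation, changed by 0.01 (SE 0.16). *Slc40a1*, the iron exporter ferroportin, changed by −0.18 (SE 0.16), *Epas1*, a hypoxia-inducible factor, by −0.26 (SE 0.23, with 1 wild-type array below detection), and *App*, the amyloid precursor gene, by −0.14 (SE 0.09).

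**Figure D4:**
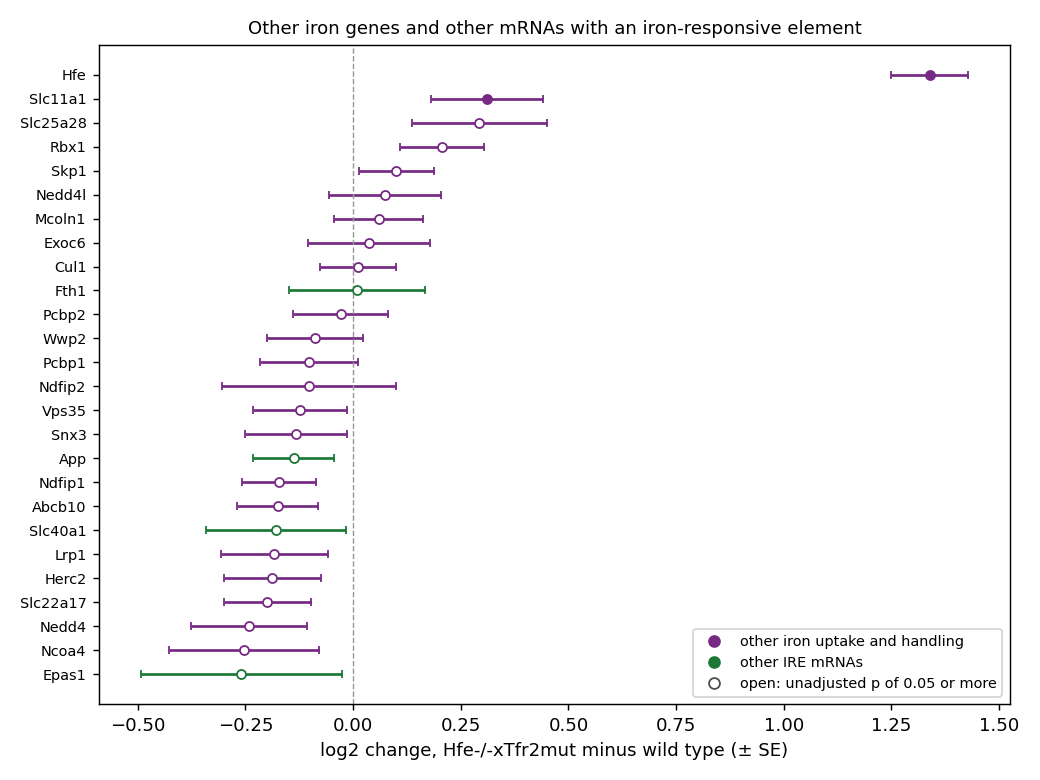
Log2 change (mutant-labelled minus wild type, ± SE) of the 22 other iron uptake and handling genes in purple and the 4 other IRE mRNAs in green that were detected, ordered by change. Filled points passed an unadjusted p under 0.05 in limma, which only *Hfe* (1.34) and *Slc11a1* (0.31) did.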

How the data were processed

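Brain RNA of 4 Hfe-/-xTfr2mut and 4 wild-type mice was measured on 1-colour bead arrays. The authors subtracted background in GenomeStudio and deposited intensity values in 3 versions (without normalization, Average and Cubic Spline), and beside each intensity the deposited detection p-value. The number of arrays limits precision, and the design gives 4 mice per group. Column names gave the sample of every column, with 0 left over, and the series value matrix equalled the cubic-spline values and was not used.

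Cubic-spline signals under 10 were set to 10 and taken to log2, and the probes detected (p under 0.01) throughout 1 group or both were fitted with limma 3.58.1 in R 4.3.3, with Benjamini-Hochberg adjustment over all of them. The study names the detection limit and an uncorrected threshold of 0.05, but no test. Single probes also had a two-sided exact permutation test over 70 assignments. Brackets of ± are SD and intervals are 95%. Probes were named by Entrez identifier through RefSeq (GRCm38.p6; 23962 probes) or by platform annotation (16), leaving 1719 without a symbol. A gene is given by its brightest detected probe unless a probe is named. The fit was tested on simulated arrays.

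The members and the lists were chosen with earlier results of these data known. Text names every member and all its probes, those of the other iron lists that passed or neighbour a member in function, and for *Trf* and *Tfrc* the 5 genes most alike over the arrays. The remaining iron and marker genes printed were chosen after their values were seen. Lists were given as counts and medians, with no list test. Alternatives were the other tables, quantile normalization and neqc, floors of 1 and 30, 3 detection rules, an equal-variance test, array weights, BeadChip position, blocking on the replicate number, the mean of a gene's probes, and leaving out each array.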

Additional observations from a re-analysis of the deposited data

How the results depend on the processing

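Over 20 alternatives *Trf* (−0.48 to −0.37) and both *Tfrc* probes (−0.49 to −0.36 and −0.45 to −0.34) kept their direction and an unadjusted p under 0.05. *Steap2* (−0.46 to −0.25) did so in 19 of 20, the exception being the fit without mutant-labelled replicate 1, which left 2 member genes called in place of 3. Weighting arrays by quality reversed *Aco1* (to −0.063) and *Ireb2* (to 0.19), whose change was never past the threshold, raised the probes at unadjusted p from 1427 to 2190 and those at adjusted p from 19 to 118. The cause was not tested. Adjusted counts were 12 with detection in all 8 arrays, 7 with no detection filter and 8 with the equal-variance test. Leaving out single arrays gave −0.11 to 0.34 for *Aco1*, −0.164 to 0.007 for *Fbxl5* and 1036 to 1952 probes at unadjusted p. Detection in all 8 arrays left no *Aco1* or *Ireb2* value. Deviations of same-numbered arrays correlated at r = 0.101, −0.143, −0.348 and 0.098, and 2 of 4 mutant-labelled arrays correlated best with their own number. So few arrays cannot exclude a pairing, but none was stated, so the main fit used no block. With the replicate block 3 member genes and 1128 probes passed unadjusted p. In the non-normalized signals the groups overlapped for all 4 called probes, with the highest mutant-labelled against the lowest wild-type signal at 4660 and 4404 for *Trf*, 1231 and 1055 (ILMN_2619848) and 1394 and 1151 (ILMN_2860804) for *Tfrc*, and 247.7 and 204.8 for *Steap2*. Signals near 60 lie at the detection limit, so *Ireb2* and *Slc11a2* have little measurable range.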

Other observations

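The astrocyte genes, which take up iron as well, were all detected, 8 of 8. Of these 1 was lower at unadjusted p (*Aldh1l1*, a folate enzyme, −0.29), 0 were higher and the median was 0. The groups overlapped for *Aldh1l1*, and 1 of 8 is near the 12.7% of all probes tested that passed in either direction. *Gfap*, the intermediate filament of astrocytes, changed by 0.26 (SE 0.14) and *Aqp4*, the water channel of their endfeet, by 0.17 (SE 0.13), and neither passed.

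The genes most alike to *Trf* and *Tfrc* in deviation from the group mean over the 8 arrays, among 6950 genes, were not other members. For *Trf* they were *Csrnp1* (r = 0.933), *Lime1* (0.926), *Serf2* (0.924), *Lipa* (0.922) and *Nr2c2ap* (0.918). For *Tfrc*, read with ILMN_2860804, they were *Asf1a* (r = 0.974), *Ankfy1* (0.968), *Atm* (0.967), *Smc6* (0.964) and *Pianp* (0.956). Their own changes between the groups ran both ways, with *Csrnp1* at 0.67 and *Ankfy1* at −0.32. These are the highest of many correlations over 8 arrays.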
